A study of Mus musculus with 12 samples.

Results

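The ribosomal protein genes examined here are the 82 of 23352 rows of the authors' gene table whose single gene symbol has the form of a cytosolic ribosomal protein name (Rpl, Rps or Rplp followed by a number). They comprise 47 large-subunit names, 32 small-subunit names and the 3 genes of the stalk, and 7 of the 82 are paralogs or look-alikes of the standard set. No row was listed at 0 in one group and above 50 FPKM in another, so none was set aside as a failed estimate. The tissue was neocortex dissected from mouse embryos of embryonic day 16, and its RNA was sequenced in 12 libraries. In the Nfia line, strain Nfia{tm1Rmg}(C57BL/6), 2 libraries were wild type and 4 were labelled homozygous Nfia knockout, and the Nfib line, strain Nfib{tm1Rmg}(C57BL/6), had 2 wild-type and 4 homozygous Nfib knockout libraries. Nothing in the labels tells if each library was a separate embryo or how litters were distributed. The question put to these genes is whether loss of either nuclear factor I protein is accompanied by a different supply of ribosomal protein transcripts.

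Ribosomal proteins assemble with ribosomal RNA into a small subunit, which reads the messenger RNA, and a large subunit, which joins amino acids. Their transcripts are among the most abundant of most cells, are made in matched amounts, and begin with a C followed by a run of pyrimidines, the 5′ terminal oligopyrimidine (TOP) tract, through which growth signals acting on mTOR control their translation. In the developing cortex, dividing progenitors and growing neurons both depend on a high rate of ribosome production. Nuclear factor I proteins are transcription factors that bind the sequence TTGGC, usually as a pair of half-sites facing each other.

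The start-site sequences of 6 members show where pyrimidine runs lie at their annotated starts. The windows below run from 25 bases before to 35 bases from the annotated start, are credited to RefSeq on build GRCm38.p6, and carry their longest run of pyrimidines in capitals, the first of them where 2 are equally long, as in Rps27l. The first 3 are members with the most extreme folds among abundant members, Rps27 is the member that varied most between groups among those above 10 FPKM, and the last 2 are paralogs.
Rpl35: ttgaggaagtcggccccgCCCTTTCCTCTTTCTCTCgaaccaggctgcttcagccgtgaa
Rplp2: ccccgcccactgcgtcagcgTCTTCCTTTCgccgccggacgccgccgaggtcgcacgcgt
Rpl38: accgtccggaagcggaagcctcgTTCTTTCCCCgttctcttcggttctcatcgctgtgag
Rps27: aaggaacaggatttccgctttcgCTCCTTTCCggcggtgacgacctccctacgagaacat
Rps27l: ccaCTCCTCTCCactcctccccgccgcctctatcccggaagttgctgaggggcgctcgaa
Rpl22l1: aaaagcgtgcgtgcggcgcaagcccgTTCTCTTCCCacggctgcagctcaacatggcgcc
They lie at chr2:39005097-39005156 (minus strand), chr7:141447626-141447685 (plus), chr11:114668555-114668614 (plus), chr3:90213614-90213673 (minus), chr9:66946061-66946120 (plus) and chr3:28805483-28805542 (plus), in that order. In Rpl35, Rplp2, Rpl38 and Rps27 the run spans the annotated start and the start base is a C followed by at least 4 pyrimidines. In the paralogs Rps27l and Rpl22l1 the annotated start base does not meet that form, although each window holds a pyrimidine run.

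RefSeq start windows of 300 bases, 250 before and 50 from the start, were at hand for 61 of the 82 members, in 72 windows. The TOP form at the start base itself was present in 13 of the 72 windows (18.1%) and in 2.51% of all 32851 windows. A run of 8 or more pyrimidines within 50 bases of the start was present in 56 of the 72 windows (77.8%) and in 35.7% of all windows, and annotated starts can be off by several bases. The nuclear factor I half-site TTGGC, counted on both strands over the whole window, was present in 35 of the 72 windows (48.6%), close to the 46.7% of all windows. No member window held TTGGC and GCCAA spaced 5 bases apart, a form found in 12 of all windows. These counts describe letters in the windows and say nothing of where the factors bind.

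The values are the authors' weighted averages per group in FPKM (fragments scaled to transcript length and to sequencing depth), 1 per gene and group. Levels can be compared between genes per unit of length, but the spread of libraries within a group cannot be given, and the depth is unknown. By the authors' group averages, the targeted gene Nfib stood at 134 FPKM in its wild types and at 9.12 in its knockouts, while Nfia stood at 33.7 and 28.2 in its own line, which does not check the label of that group. It is therefore called the labelled Nfia knockout. The cortical markers Emx1, Neurod6, Tbr1, Pax6 and Eomes were all present, from 19.9 FPKM upwards.

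Ribosomal protein transcripts were abundant and level in all 4 groups. At a mean of 100 FPKM or more over the groups were 72 of the 82 members, and the median of these 72 was 713 FPKM in the Nfia-line wild types, 730.1 in the labelled Nfia knockouts, 783 in the Nfib-line wild types and 728 in the Nfib knockouts. Summed over all 82 members, they held 11.9%, 12.5%, 12.9% and 12.3% of the FPKM of all rows in the same order. With rows of failed estimates left out of the totals, among them Eef1a1, which is listed at 0 in the labelled Nfia knockouts, these shares were 12.2%, 12.5%, 13.2% and 12.4%. The highest group value exceeded the lowest by a median of 1.13-fold per gene among the 72, from 1.05-fold for Rps27a, whose protein is made fused to ubiquitin, to 1.26-fold for Rplp2. Other genes at 100 FPKM or more, 592 in number, had a median of 1.14-fold, close to that of the members.

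**Figure D1:**
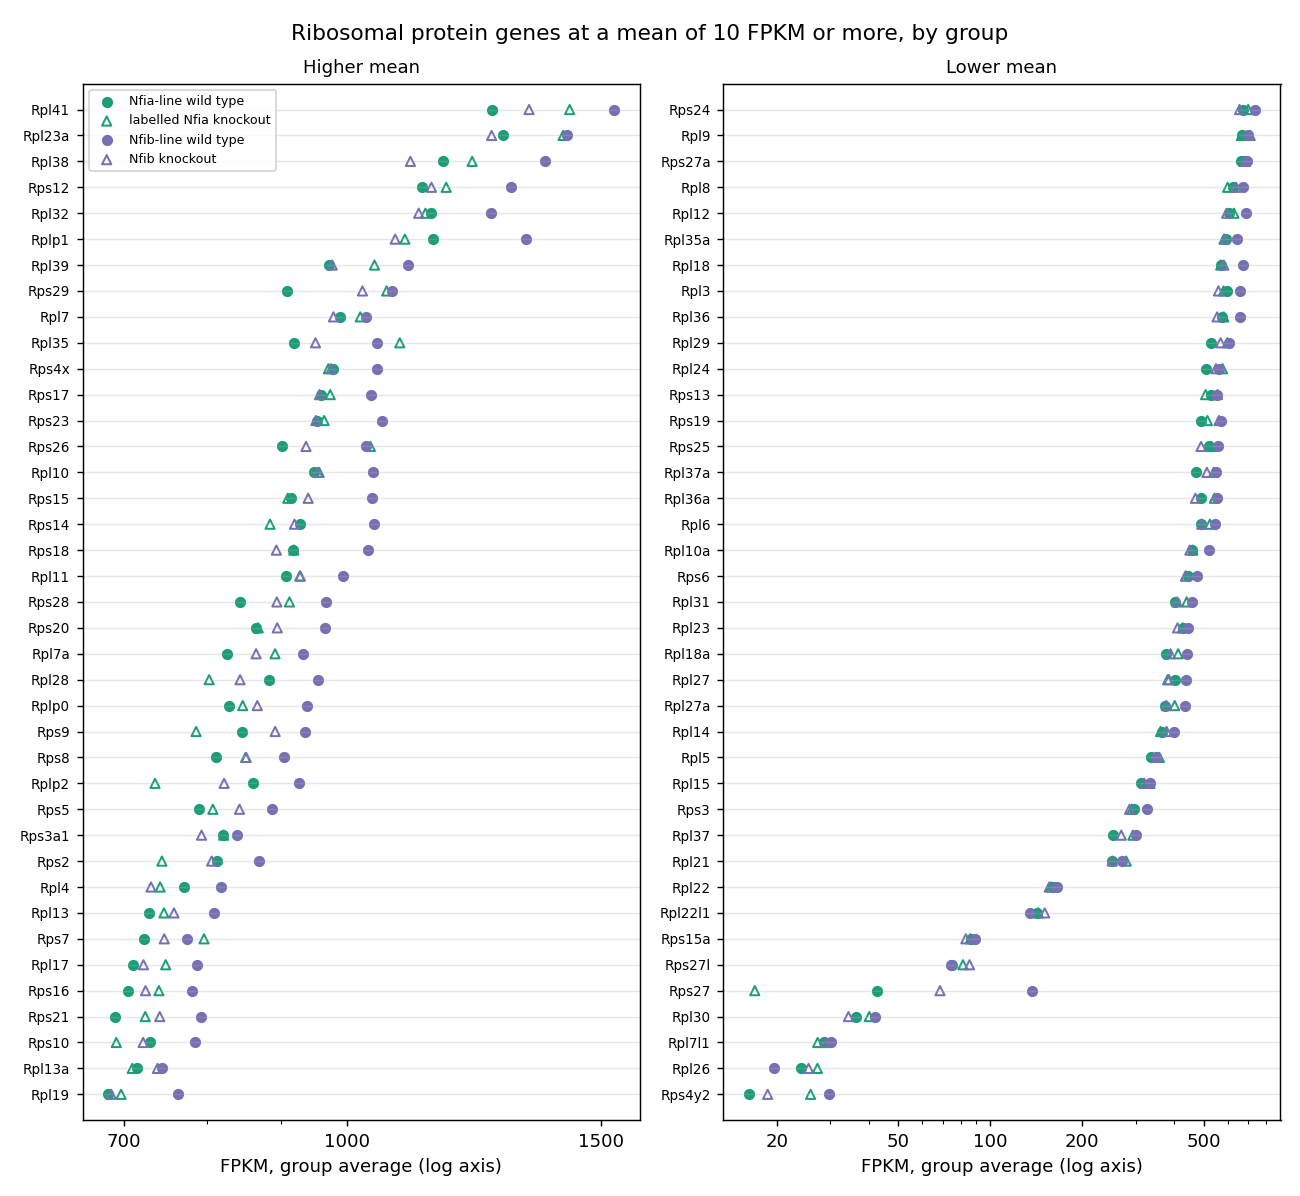
FPKM of 78 members at a mean of 10 FPKM or more (log axis), 1 row per gene, filled circles for wild types and open triangles for knockouts, green for the Nfia line and purple for the Nfib line. Points of a gene lie close together for nearly all rows, from Rpl41 at the top down to Rpl22l1, and spread widely for Rps27 and Rps4y2.

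Large-subunit genes held 5 of the 8 highest mean levels. Rpl41, which encodes the smallest ribosomal protein, led with 1260 FPKM in the Nfia-line wild types, 1427 in the labelled Nfia knockouts, 1532 in the Nfib-line wild types and 1337 in the Nfib knockouts. Rpl23a stood at 1283, 1412, 1421 and 1259 FPKM in that order of groups, and Rpl38, a surface protein of the large subunit whose loss in mice alters skeletal patterning, at 1165, 1221, 1371 and 1106. Rpl32 (1143, 1133, 1258 and 1121 FPKM) and Rpl39 (972, 1045, 1101 and 976 FPKM) completed the large-subunit members of the 8. All 5 were highest in the Nfib-line wild types, and in Rpl23a the labelled Nfia knockouts stood almost level with them. The median large-subunit member at 100 FPKM or more, of 41, stood at 591 FPKM in the Nfia-line wild types, against 816 for the 28 small-subunit members.

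Of the small-subunit genes, Rps12 had the highest level, at 1126 FPKM in the Nfia-line wild types, 1171 in the labelled Nfia knockouts, 1299 in the Nfib-line wild types and 1144 in the Nfib knockouts. Rps29, a zinc-binding protein of the small-subunit head, followed at 909, 1065, 1074 and 1025 FPKM in that order, low in the Nfia-line wild types alone. The stalk is the arm of the large subunit that recruits translation factors, built from the base protein P0 and the acidic proteins P1 and P2. Rplp0 stood at 828, 846, 937 and 866 FPKM in the same order, Rplp1 at 1146, 1097, 1330 and 1080, and Rplp2 at 860, 736, 926 and 822. All 3 stalk genes were highest in the Nfib-line wild types, and Rplp2 stood apart from the other 2 by its low value in the labelled Nfia knockouts.

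The paralogs lay at the low end of the members' levels. Rpl22l1, a paralog of Rpl22 that can take its place in the ribosome, stood at 142 FPKM in the Nfia-line wild types, 144 in the labelled Nfia knockouts, 135 in the Nfib-line wild types and 151 in the Nfib knockouts, close per length to Rpl22 itself (161, 158, 166 and 156 FPKM). Rps27l, a paralog of Rps27 known as a target of p53, stood at 74.9, 81.5, 74.3 and 85.6 FPKM in that order. Neither gene passed the test in either comparison, and for Rpl22l1 the Nfia-line groups were almost equal. Rpl7l1, a paralog of Rpl7, stood between 27.2 and 30.1 FPKM in all groups. Rpl3l, known from striated muscle, and the testis paralogs Rpl10l and Rpl39l were below 0.1 FPKM in every group, and Rpl10l was listed at 0 in 3 of the 4.

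The remaining members under 100 FPKM are rows whose value need not be that of the gene. Near-identical copies can draw reads from ribosomal protein genes, and 58 of the 82 members have at least 1 pseudogene named after them in the mouse annotation. Of the low rows, Rps27 has 1 such pseudogene, Rpl26 6, Rps15a 8 and Rpl30 9, while the abundant Rps12 and Rpl31 have 24 each. The part of copies in the low values was not tested. Rps27 was at 42.5 FPKM in the Nfia-line wild types, 17.0 in the labelled Nfia knockouts, 137 in the Nfib-line wild types and 68.5 in the Nfib knockouts, while a second row that names Rps27 together with Gm9846 stood at 1261, 1333, 1287 and 1174 FPKM in that order. The row of several genes was thus level across the groups where the row of Rps27 alone varied 8.06-fold. Rpl26 (19.6 to 27.2 FPKM), Rpl30 (34.4 to 41.9 FPKM) and Rps15a (83.3 to 89.5 FPKM) were also low for genes of the standard set, and how reads were shared among copies is not given in the sources used here. Rps4y2, at 16.2, 25.8, 29.6 and 18.7 FPKM, is an older symbol of Rps4l, which RefSeq lists as a transcribed pseudogene.

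In the labelled Nfia knockouts no ribosomal protein transcript passed the test for a change. By the authors' deposited q-values (Cuffdiff, as named in the processing notes), 0 of 78 tested members were higher or lower at q 0.05. The same q was passed by 520 of 13736 genes tested (3.79%). Genes of like abundance, the abundant members included, passed less often, 8 of 659 at a mean of 100 FPKM or more (1.21%). A count of 0 among the members at q 0.05 is near this background. At an unadjusted p under 0.05 stood 0 of the 78 members, 1384 of the 13736 genes, and 45 of 588 other genes at 100 FPKM or more. The contrast at that p was not tested. The median log2 fold of the 78 members was 0.019 in the authors' deposited table, and 42 of the 72 abundant members had a fold above 0 and 30 below. By the ratio of the group FPKM, from which the deposited folds of abundant members differed by a median of -0.012 on the log2 scale, 47 were above 0 and 25 below. In the authors' deposited table all 72 log2 folds lay within 0.25 of 0, and 52 of them within 0.1. The median turned to -0.11 when computed from FPKM against the Nfib-line wild types and to -0.038 against the mean of both wild types, so its sign rests on the choice of control.

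The folds at the edges of that range were small against their errors. The authors' deposited table gave Rplp2 the lowest log2 fold of the abundant members, -0.24 (p = 0.0636, q = 0.560), with an approximate 95% interval of -0.50 to 0.027. Here and below, an implied error or interval rests on the deposited p-value. Where that error was smaller than the running median of genes of like FPKM, as for Rplp2 and Rpl35, the median took its place. Rpl35, which lies at the exit of the tunnel for nascent proteins, had 918 FPKM in its wild types against 1088 in the labelled Nfia knockouts, and its log2 fold in the authors' deposited table, 0.23 (q = 0.594), was the highest, implied interval -0.032 to 0.50. Other members with low folds included Rpl28 (-0.15) and Rps2 (-0.14), and those with high folds were Rps29 (0.22), Rpl37 (0.20) and Rps26 (0.19), all log2 folds in the authors' deposited table. Below 100 FPKM, the authors' deposited table gave far larger log2 folds to Rps27 (-1.33, q = 0.939) and Rps4y2 (0.66, q = 0.815), with implied intervals of -3.84 to 1.18 and -0.29 to 1.61 that span 0. Rpl10, at 948 FPKM against 956, had no deposited p under 1 in this comparison and so was not counted as tested. The same held for the 3 paralogs below 1 FPKM.

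What size of change could have been seen is given by the errors that the deposited p-values imply. On the log2 scale their median for abundant members was 0.13 in the Nfia comparison and 0.15 in the Nfib comparison. Of the 71 abundant members with such an interval, 71 intervals in the Nfia comparison and 70 in the Nfib comparison lay within a 1.5-fold change either way, the exception being Rpl38. The smallest log2 fold that passed q 0.05 at 100 FPKM or more in the authors' deposited table was 0.54 in size, for Ddah2, in the Nfia comparison and 0.44, for Id2, in the Nfib comparison. A shift of a few percent per gene was not detectable at this error.

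In the Nfib knockouts no member passed the threshold either, but the values leaned one way. By the authors' deposited q-values 0 of 79 tested members were higher or lower at q 0.05. The same q was passed by 740 of 13729 genes tested (5.39%) and 12 of 661 genes at 100 FPKM or more (1.82%), the abundant members included. At an unadjusted p under 0.05 stood 0 of the 79 members, 1844 of the 13729 genes, and 42 of 588 other genes at 100 FPKM or more. The median log2 fold of the 79 members was -0.098 in the authors' deposited table, and 65 of the 72 abundant members (90.3%) had a fold below 0. By the ratio of the group FPKM, 69 of the 72 were below 0, the deposited folds lying a median of 0.022 above the log2 ratios. For other genes at 100 FPKM or more the share below 0 was 57.3% and the median -0.021, and for all 13554 genes tested in both comparisons 50.5% and -0.0030. Members share libraries, scaling and transcript features, so the 65 are not independent observations and no test was made of their joint direction. With the wild types of the Nfia line as controls, the median log2 ratio of the same members was 0.021.

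The smallest p of the members in the authors' deposited table was that of Rplp1, whose log2 fold was -0.28 (p = 0.0554, q = 0.395) with an implied 95% interval of -0.57 to 0.015. Rpl38 had the lowest log2 fold that the authors' deposited table gives for an abundant member, -0.29 (q = 0.460), with an implied interval of -0.60 to 0.027. In both genes the Nfib-line wild types had the highest level of the 4 groups. In the authors' deposited table, 7 abundant members had a log2 fold above 0: Rpl22l1 (0.19), Rpl9 (0.045), Rpl5 (0.028), Rps13 (0.023), Rpl13a (0.010), Rps27a (0.0072) and Rps19 (0.00083). The last 4 of these had a lower group FPKM in the knockouts than in the wild types, so that by FPKM only Rpl22l1, Rpl9 and Rpl5 were higher. Rpl5 is the large-subunit protein that, bound to 5S ribosomal RNA, restrains Mdm2, and Rps19 the protein most often mutated in Diamond-Blackfan anaemia. For members under 100 FPKM the authors' deposited table listed log2 folds of 0.23 for Rps27l (q = 0.759), 0.40 for Rpl26 (q = 0.998), -0.26 for Rpl30 (q = 0.996), -0.64 for Rps4y2 (q = 0.781) and -0.99 for Rps27 (q = 0.684), none past the threshold.

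**Figure D2:**
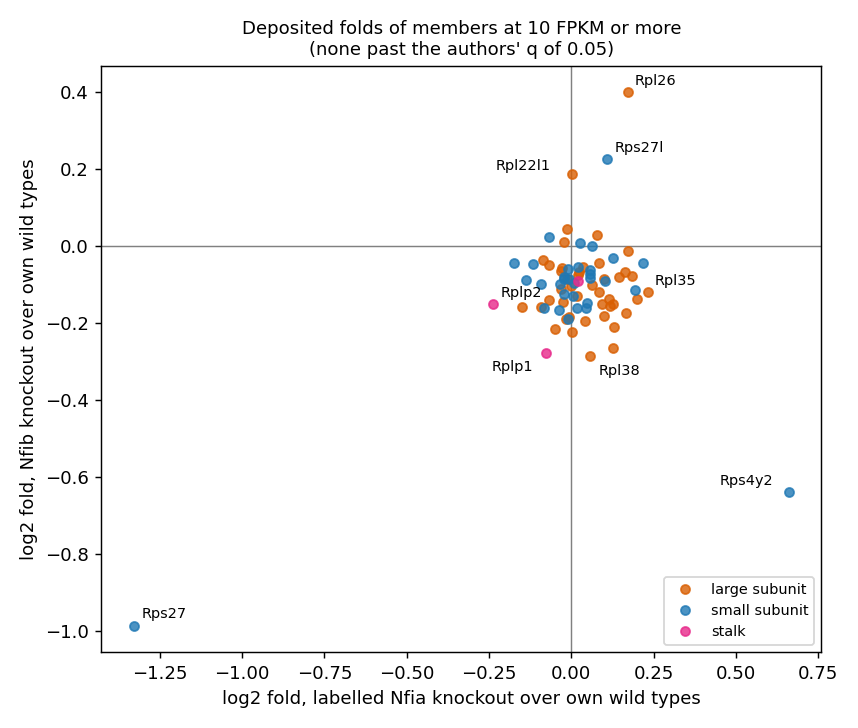
Deposited log2 folds of the 79 members at a mean of 10 FPKM or more, labelled Nfia knockout over its wild types on the x axis and Nfib knockout over its wild types on the y axis, coloured by subunit. Most members sit around 0 on the x axis and just below 0 on the y axis, while Rps27 and Rps4y2 lie far out with folds that did not pass the threshold.

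Most members had their highest level in the Nfib-line wild types. The Nfib-line wild types held the highest of the 4 values in 64 of the 72 abundant members (88.9%) and in 215 of 592 other genes at 100 FPKM or more (36.3%). Of these others, the 122 with transcripts under 1000 bases had it in 68 (55.7%), and of 76 mitochondrial ribosomal protein genes 42 did (55.3%). Relative to the mean of the 4 groups, the median abundant member stood at 0.095 on the log2 scale in the Nfib-line wild types, -0.050 in the Nfia-line wild types, -0.018 in the labelled Nfia knockouts and -0.038 in the Nfib knockouts. The log2 ratio of Nfib-line to Nfia-line wild types had a median of 0.15 over 81 members and was above 0 for 71 of the 72 abundant ones, Rpl22l1 being the exception at -0.080. Between the knockout groups the same ratio had a median of -0.025, with 27 of the 72 above 0. No deposited p-value covers these ratios, and with 2 wild-type libraries behind each average a difference between lines, litters or library batches cannot be told apart.

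**Figure D3:**
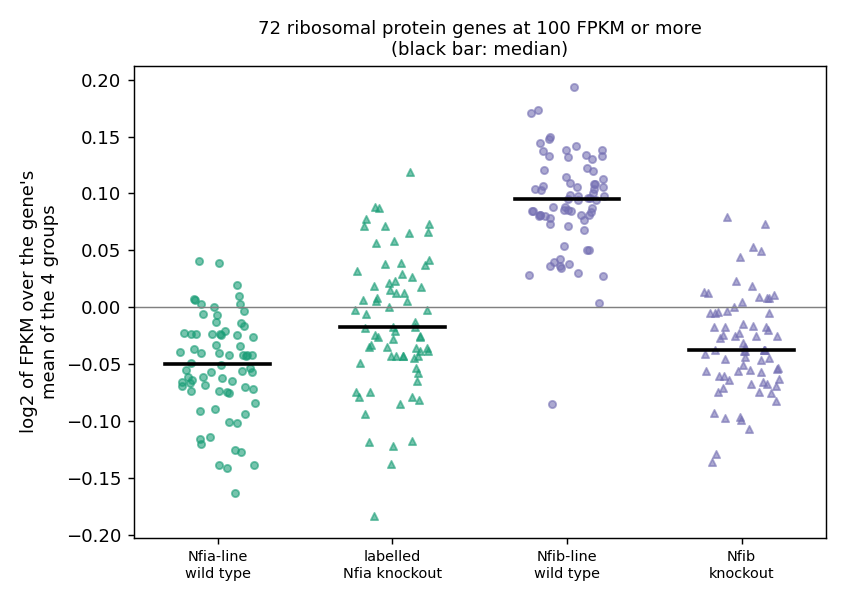
Log2 of FPKM over the mean of the 4 groups for each of the 72 members at 100 FPKM or more, 1 point per gene and group, with a black bar at the median. Points of the Nfib-line wild types lie above 0 for 71 of 72 genes, and the other 3 groups have medians of -0.050, -0.018 and -0.038.

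The difference between the lines in knockout effect was tested approximately for every gene, from the 2 deposited folds and the errors implied by their p-values, with Benjamini-Hochberg adjustment over 13554 genes. Of 78 members, 0 passed an adjusted p of 0.05, where 512 of all genes (3.78%) passed. At an unadjusted p under 0.05 the count of members was also 0. The share of all genes at that p was not computed, so this count has no background to be read against. Rps4y2 came nearest, with a log2 difference of -1.30 and an implied standard error of 0.72, and of the abundant members Rpl35, with -0.35 and 0.20. Each rests on a normal approximation to the deposited p-values, and with errors of this size a count of 0 does not show that the lines responded alike.

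Short transcripts as a class showed the wild-type difference too. Other genes at 100 FPKM or more with transcripts under 1000 bases, 122 in number, had a median log2 ratio of Nfib-line to Nfia-line wild types of 0.15. The abundant members had the same value, and the full set of 592 other genes at that level, these 122 included, had 0.034. The ratio was above 0 for 111 of the 122 (91.0%). In the Nfib comparison the median log2 fold of the 122 was -0.077 with 82.0% below 0, and in the Nfia comparison 0.088 with 23.0% below 0. The abundant members had -0.099 and 0.019. Across 555 other genes at 100 FPKM or more the wild-type ratio was lower the longer the transcript (Pearson r = -0.59, Spearman rho = -0.60), and across the 72 members it did so weakly (r = -0.11, rho = -0.25). These correlations are across genes that share the same 4 averages and are given as a description. The part of transcript length in the members' values was not tested.

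Coding length and base composition were set against the members' values too. The wild-type ratio of the 72 had r = -0.32 with coding length and r = 0.40 with the GC content of the transcript. Across the 555 other genes at 100 FPKM or more these were -0.45 and 0.31. In the 24 members with the shortest transcripts, of 271 to 612 bases, the median log2 fold in the Nfib comparison was -0.15 and the wild-type ratio 0.18, and in the 24 with the longest, of 860 to 3706 bases, these were -0.087 and 0.14. In the Nfia comparison the medians of the same sets were both 0.012. The fold in that comparison had r = -0.052 with transcript length across the 72 members and r = -0.43 across the 555 other genes. By subunit, the median log2 folds of abundant large-subunit members were 0.039 in the Nfia and -0.12 in the Nfib comparison, those of small-subunit members 0.0070 and -0.087, and those of the 3 stalk genes -0.077 and -0.15. The members are scattered over 19 chromosomes, and the 4 on the X chromosome, Rpl10, Rpl36a, Rpl39 and Rps4x, had deposited log2 folds (the authors' deposited table) from -0.021 to 0.13 in the Nfia comparison and from -0.21 to -0.085 in the Nfib comparison, inside the range of the abundant members.

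Ribosomal proteins that the name rule leaves out had values like those of the members. Rpsa, the laminin-receptor homologue of the small subunit, Fau, made as a fusion with a ubiquitin-like protein, and the Rpl36a paralog Rpl36al gave 0 of 3 past the threshold in both comparisons, with median log2 folds of 0.053 and -0.17. All 3 were highest in the Nfib-line wild types, Rpsa for example at 533 FPKM in the Nfia-line wild types, 557 in the labelled Nfia knockouts, 614 in the Nfib-line wild types and 535 in the Nfib knockouts. Mitochondrial ribosomal proteins, which serve the separate ribosome of that organelle, gave 0 of 76 past the threshold in both comparisons, with median log2 folds of 0.060 and -0.051 and a wild-type ratio of 0.12. Their smallest p-values in the authors' deposited table belonged to Mrpl54 in the Nfia comparison (log2 fold 0.37, q = 0.556) and Mrpl53 in the Nfib comparison (-0.43, q = 0.363). Subunits of oxidative phosphorylation, another set of short and abundant transcripts, gave 0 of 77 in both, with medians of 0.13 and -0.080 and a wild-type ratio of 0.15. The authors' deposited table gave Cox7b a log2 fold of 0.31 (q = 0.339) in the Nfia comparison and Atp5g1 of -0.33 (q = 0.274) in the Nfib comparison.

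**Figure D4:**
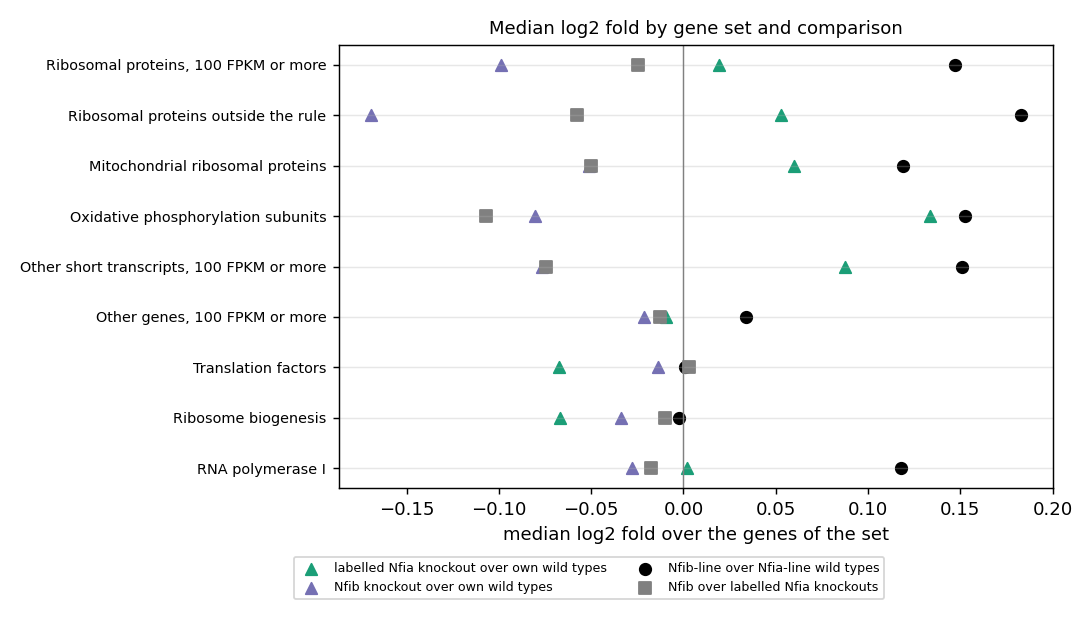
Median log2 fold of each gene set (rows) in 4 comparisons, triangles for the knockout comparisons, black circles for the ratio of Nfib-line to Nfia-line wild types and grey squares for the ratio of the knockout groups. The wild-type ratio is 0.15 for the abundant ribosomal proteins, 0.15 for other short transcripts and 0.034 for other genes at 100 FPKM or more.

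Genes that build and use ribosomes gave no call either, and for translation factors and biogenesis genes the median ratio between wild types was close to 0. Translation factors gave 0 of 40 tested past q 0.05 in both comparisons, with median log2 folds of -0.068 and -0.014 and a wild-type ratio of 0.00075, and Eef1a1, listed at 0 in the labelled Nfia knockouts and at 4391 FPKM or more elsewhere, was left out as a failed estimate. Eif2s3x, the X-linked gene of an initiation factor subunit, had the smallest p of that list in both comparisons of the authors' deposited table, its log2 fold being -0.35 (q = 0.146) in the Nfia and 0.31 (q = 0.317) in the Nfib comparison. Ribosome biogenesis genes gave 0 of 49 in both, with medians of -0.067 and -0.034 and a wild-type ratio of -0.0023. Of these the authors' deposited table gave Rrn3, which recruits RNA polymerase I to ribosomal DNA, a log2 fold of -0.28 (q = 0.377) and Mybbp1a one of -0.27 (q = 0.406) in the Nfia comparison. RNA polymerase I subunits gave 0 of 13 in both, with medians of 0.0020 and -0.028 and a wild-type ratio of 0.12.

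Other measures moved with the groups beside these values. The ribosomal RNA precursor Rn45s stood at 346 FPKM in the Nfia-line wild types, 129.9 in the labelled Nfia knockouts, 517 in the Nfib-line wild types and 561 in the Nfib knockouts by the authors' group averages, low in the labelled Nfia knockouts alone. Lars2, a gene whose reads can include mitochondrial ribosomal RNA, had the same order of groups, at 165, 60.4, 175 and 236 FPKM. By the deposited q, Rn45s and Lars2 were lower in the labelled Nfia knockouts, and neither passed in the Nfib comparison. Of 5 red blood cell markers at hand, the summed level was 71.6, 55.7, 200.4 and 64.8 FPKM in that order of groups, and of 5 meningeal markers 2.77, 2.33, 9.90 and 3.08 FPKM. Both sums were highest in the Nfib-line wild types, as most members were, and all 5 meningeal markers were lower in the Nfib knockouts by the deposited q. The red blood cell sum was mostly Hba-a2 (189.8 of 200.4 FPKM in the Nfib-line wild types), which with Alas2 was lower in the Nfib knockouts by the deposited q. The embryonic globins Hba-x (0.657 against 2.07 FPKM) and Hbb-y (1.54 against 3.48 FPKM) had lower values in the Nfib-line wild types and did not pass in that comparison. In the Nfia comparison Hbb-y was lower in the labelled knockouts by the deposited q (4.06 FPKM in the wild types, 1.43 in the knockouts). The 4 choroid plexus markers summed to 0.597, 1.79, 1.20 and 97.5 FPKM, nearly all of it Ttr in the Nfib knockouts, and the 5 ventral forebrain markers to 39.9, 59.9, 56.3 and 31.2 FPKM. By the deposited q, Ttr was higher in both knockout groups, and Clic6 and Folr1 in the Nfib knockouts. At the same q, 3 ventral forebrain markers were higher in the labelled Nfia knockouts, and 4 were lower in the Nfib knockouts. The 5 cortical markers summed to 787, 715, 614 and 829 FPKM, lowest in the Nfib-line wild types. That sum was mostly Neurod6 (424 of 614 FPKM there), which with Tbr1 and Pax6 was lowest in that group. Emx1 (31.5, 25.2, 31.7 and 34.0 FPKM) and Eomes (40.4, 27.2, 37.05 and 43.7 FPKM) were lowest in the labelled Nfia knockouts. By the deposited q, Eomes was lower in the labelled Nfia knockouts, and Pax6 and Tbr1 were higher in the Nfib knockouts. Emx1 and Neurod6 passed in neither comparison. The 5 microglial markers summed to 16.1 to 16.6 FPKM over the groups. The 3 endothelial markers summed to 33.3, 33.5, 40.5 and 32.0 FPKM, also highest in the Nfib-line wild types. Most of that sum was Cldn5 (29.2 of 40.5 FPKM there). The authors' deposited table gave Cldn5 a log2 fold of -0.54 (q = 0.0372) in the Nfib comparison. Cdh5 (5.64 FPKM) and Pecam1 (6.62 FPKM) were instead highest in the Nfib knockouts, against 5.45 and 5.81 in the Nfib-line wild types. Neither passed the deposited q. The part of these cells in the members' values was not tested, and in bulk tissue fewer cells of a type and less RNA per cell cannot be told apart.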

How the data were processed

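Per the labels' protocols, total RNA was isolated with Trizol and made into TruSeq RNA libraries. The submitters' processing notes name build mm9 and Cuffdiff 2.1.1, Cufflinks, TopHat2 2.0.10 and CASAVA 1.8.2. Strand and the handling of reads that match several copies: not given in the sources used here. The authors deposited 1 table with FPKM averaged per group, log2 folds (knockout over wild type), and a p-value and q-value for each, per the file headers. It holds no value per library, so the authors' q at 0.05 served as the test, and rows with a p under 1 count as tested. The members and gene lists were chosen with earlier results of these data known.

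Counts, medians and ratios of group FPKM were computed in Python 3.11.15 with numpy 2.4.6, pandas 2.3.3 and scipy 1.17.1, and figures drawn with matplotlib 3.10.9. The error of a fold was its size over the normal deviate of its p-value, and where this was smaller than the running median of 501 genes of like FPKM, that median was used. Intervals are 95%. The test of the difference between lines was tested on simulated data, with changed genes drawn from all levels of abundance. It recovered few genes at the smallest simulated difference, which was larger than that of any abundant member. Its recovery among abundant genes alone was not measured. Transcript lengths are of the GENCODE M21 transcript with the longest coding part, matched by symbol for 81 of 82 members. Named genes were the 5 highest and 5 lowest folds per comparison, the 8 highest levels, the stalk, paralogs and up to 4 genes per other list with the smallest p; others were named where a sentence counts them. Some genes that the rule names or the lists held are not reported here, and 1 member is left out of the plot of levels.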

Additional observations from a re-analysis of the deposited data

How the results depend on the processing

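No member passed Cuffdiff's q of 0.05 in either comparison. A threshold of 0.01, a floor of 10 FPKM or the removal of paralogs could therefore only give 0 again and is no check on these counts. For the difference between lines a threshold of 0.01 was likewise bound to give 0. With errors not raised, a setting that could add calls, 0 members and 637 of all 13554 genes passed an adjusted p of 0.05. The median log2 fold of members ranged from -0.11 to 0.070 over 10 alternatives in the Nfia comparison and from -0.12 to 0.021 in the Nfib comparison. It changed sign only with other wild types: -0.11 with Nfib-line and -0.038 with pooled wild types in the first, 0.021 with Nfia-line wild types in the second. The alternative of members at 100 FPKM or more was chosen after seeing the data. The median ratio between wild types stayed between 0.10 and 0.15, and that between knockouts between -0.025 and -0.0043. Without the 10 highest other rows, the share of FPKM held by members came to 12.7% and 13.0% in the Nfia-line wild types and labelled knockouts and to 13.8% and 13.0% in the Nfib line. No paired analysis was possible because the table gives 1 average per group, and for the same reason no library could be left out. Depth is unknown and sets no stated limit here. The p-values measure the spread between libraries that may be technical replicates.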

Other observations

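Rows next to the members hold further ribosomal protein signal. Rpl34, a large-subunit protein of the standard set, has no row of its own: a row naming Rpl34 with Rpl34-ps1 stood at 14.9 FPKM in the Nfia-line wild types, 15.2 in the labelled Nfia knockouts, 17.2 in the Nfib-line wild types and 12.3 in the Nfib knockouts. The row of the pseudogene Rpl34-ps1 alone stood at 951, 949, 1014 and 894 FPKM in that order, a level in the range of the abundant members, and again highest in the Nfib-line wild types. The authors' deposited table lists its log2 folds as -0.015 (q = 0.999) in the Nfia and -0.16 (q = 0.823) in the Nfib comparison. The other 5 rows of pseudogenes named after members were at 5.13 FPKM or below in every group.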
